A study of Homo sapiens with 9 samples.

Results

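HLF, its PAR bZIP relatives DBP and TEF, and 7 genes tied to them in the circadian clock (NFIL3, NR1D1, NR1D2, PER1, PER2, PER3 and CIART) were examined in U2-OS clones with raised NCBP2, a cap-binding protein. The 10 genes were chosen by symbol, matched through their Ensembl identifiers, and all 10 were found among the 60609 gene identifiers of each count table. HLF was selected on its value: it had been seen higher in both NCBP2 clones, so its difference from the vector libraries is given as a description and supports nothing. The other 9 genes were listed for their family or their place in the clock.

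U2-OS is an established human osteosarcoma line, and RNA was sequenced after removal of ribosomal RNA, although the labels give polyA RNA as the molecule. The NCBP2 arm consisted of 6 libraries: clones A1 and A4 were each sequenced as replicates A, B and C, so the arm rests on 2 clones. The vector arm consisted of 1 library from each of 3 clones that were obtained in the same way with an empty vector, also lettered A, B and C. The labels do not name the vector's promoter, all groups were grown in DMEM with fetal bovine serum, and no synchronisation or sampling time is given. Nothing in the labels says that the libraries of 1 clone came from separate cultures, so p-values measure the spread between these libraries. Within clones A1 and A4 that spread may be technical, whereas in the vector arm it lies between 3 clones. The tests pool both kinds of spread. The SEs and p-values of clone A4 against clone A1 therefore also rest on the spread between the vector clones.

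PAR bZIP proteins (HLF, DBP and TEF) are basic leucine zipper activators that share a proline- and acidic-amino-acid-rich region and bind D-box sequences as dimers, while NFIL3 (E4BP4) binds the same sequences and represses. In the clock, CLOCK and BMAL1 drive PER, NR1D and PAR bZIP genes through E-boxes, PER proteins then repress CLOCK and BMAL1, and the NR1D receptors repress genes with ROR elements, among them BMAL1 and NFIL3. U2-OS cells are a widely used model of the clock in culture. HLF itself is best known from liver, kidney and brain, from blood stem cells, and from the TCF3-HLF fusion of a rare leukaemia.

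Short promoter sequences are shown for the genes whose levels the results turn on, since the family is defined by the elements it binds and is driven through. RefSeq (GRCh38.p14) gave 15 windows for the 10 genes, each from 250 bases before to 50 bases after an annotated start, and 5 genes had 2 windows. Both strands were searched for the E-box CACGTG, the E-prime box CACGTT, the D-box TTATGTAA, its variant TTATGCAA, the PAR site TTACGTAA, the cyclic AMP response element TGACGTCA and the ROR element TAGGTCA. None of these strings contains another. Capitals mark the match, and a match describes letters only. HLF carried the cyclic AMP response element 7 bases before its first start, a string found in 1.85% of the 35116 windows of all genes.
HLF (chr17:55264942-55264971, plus strand): ggtgcgggcccTGACGTCActcttgtcagg
E-boxes were found in 5 of the 15 windows, in TEF, PER1, NR1D2 and CIART, and in 7.26% of all windows. The TEF and PER1 matches are shown because the levels of both genes moved together between libraries. DBP moved with them, but its window held no match. NR1D2 held E-boxes and ran the other way, with Pearson's r of log2 levels within groups of -0.459 with TEF and -0.413 with PER1. A part of the E-box in these levels was not tested.
TEF first start (chr22:41367249-41367278, plus strand): cgcgacagctcCACGTGctgcagctggcgc
TEF second start (chr22:41381738-41381767, plus strand): acctggccccgCACGTGtctatcttatccc
PER1 (chr17:8152559-8152588, minus strand): gcacccaggtcCACGTGcgcccgtgtgtgt
CIART held 3 E-boxes, at 129, 71 and 57 bases before its start, and the 100 bases that hold them are shown because this gene was nearly silent in these cells.
CIART (chr1:150282414-150282513, plus strand): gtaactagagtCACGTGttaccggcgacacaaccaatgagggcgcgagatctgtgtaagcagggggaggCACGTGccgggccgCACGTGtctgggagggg
NR1D1 held an E-prime box on the opposite strand 168 bases before its start, and so the capitals read as its reverse complement; 5.34% of all windows held this string, PER2 among them.
NR1D1 (chr17:40100741-40100768, minus strand): cgcaagagctcAACGTGccggctgttgg

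The sequences that PAR bZIP proteins and NFIL3 bind were searched for in the same windows. The D-box was found in PER3, 177 bases before its first start, and in NR1D2, 194 bases before its second start on the opposite strand, and in 0.886% of all windows. PER1 held the variant 30 bases before its start (0.846% of all windows). The PAR site, 3 bases before the start of PER2, was found in 0.125% of all windows.
PER3 D-box (chr1:7784103-7784132, plus strand): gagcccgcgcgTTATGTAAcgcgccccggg
NR1D2 D-box (chr3:23945916-23945945, plus strand): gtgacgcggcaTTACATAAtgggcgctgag
PER1 D-box variant (chr17:8152416-8152445, minus strand): agtgcccggcaTTATGCAAcccgcctcccc
PER2 PAR site (chr2:238288595-238288624, minus strand): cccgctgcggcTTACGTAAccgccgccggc
NFIL3 held the ROR element on the opposite strand, 9 bases before its second start, and 1.85% of all windows did.
NFIL3 (chr9:91423824-91423852, minus strand): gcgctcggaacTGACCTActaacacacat
No match to any of the strings lay in the window of DBP, the second window of HLF or that of PER3, or the first window of NR1D2 or NFIL3.

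Gene counts ranged from 29234022 to 50554080 per library, and reads counted in no gene made up 44.5% (vector replicate B) to 63.6% (clone A1 replicate A) of all reads. The library of clone A1 replicate A differed from the rest: its log2 levels correlated at 0.899 to 0.928 with those of the other libraries, against 0.947 to 0.970 among the others. In CPM (counts relative to the library total, scaled by the TMM method), the overexpressed gene NCBP2 ranged over 298.9 to 348.4 in clone A1, 456.2 to 1035 in clone A4 and 90.6 to 98.4 with the vector. The osteosarcoma identity held in part: RUNX2 (182.4 to 294.0 CPM) and COL1A1 were counted in every library, while SP7, BGLAP and IBSP, which mark maturing osteoblasts, were at 0 or 1 count. Of the liver markers, ALB, APOA1 and TTR summed to at most 0.390 CPM in any library, and of the blood markers HBB was at 0 in all 9, PTPRC reached 2.01 CPM and CD34 lay at 3.45 to 12.2 CPM, with sums of 4.70 to 10.2 CPM in the NCBP2 libraries and 10.4 to 13.5 CPM in the vector libraries. Epithelial markers were not absent: KRT18 lay at 38.9 to 101.5 CPM, EPCAM at 2.42 to 5.58 CPM and CDH1 at 0.598 to 3.63 CPM. KRT19 was at 0 or 1 count. The mesenchymal markers VIM, FN1 and CDH2 summed to 2074 to 2653 CPM with NCBP2 and 2655 to 3244 CPM with the vector. The 9 osteoblast markers summed to 826.8 to 1241 CPM in clone A1, 1526 to 2163 CPM in clone A4 and 1354 to 1722 CPM with the vector. The mesenchymal sums of the arms nearly met, at 2653 and 2655 CPM, as did the blood sums, at 10.2 and 10.4 CPM. Among single genes tested, 3.74% did not overlap between the arms in either direction, and this share was not counted for sums. No tested marker of these lists passed an adjusted p of 0.05 between the arms. The part of the marker differences in the results was not tested.

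HLF (ENSG00000108924.14, chromosome 17 from 55264960 to 55325187, plus strand of GRCh38) shared no annotated exon base with another gene. The clone A1 libraries, given here and below in the order A, B, C, had 100, 142 and 127 counts of HLF, or 3.52, 3.82 and 2.99 CPM. Clone A4 had 226, 373 and 192 counts, or 4.74, 8.49 and 4.30 CPM. The vector libraries had 21, 26 and 6 counts, or 0.455, 0.507 and 0.146 CPM. Every NCBP2 library thus lay above every vector library, and every clone A4 library above every clone A1 library. The gene was low in all of them, and at 6 counts the exact 95% Poisson interval of vector replicate C ran from 0.0537 to 0.319 CPM, for counting error only. The interval of the highest vector library ended at 0.743 CPM and that of the lowest NCBP2 library began at 2.49 CPM.

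HLF averaged 4.64 CPM ± 1.98 (SD, n = 6) with NCBP2 and 0.370 CPM ± 0.195 (SD, n = 3) with the empty vector, a ratio of 12.6. The ratio to vector was 9.31 for clone A1, with a mean of 3.44 CPM ± 0.421 (SD, n = 3), and 15.8 for clone A4, with 5.84 CPM ± 2.30 (SD, n = 3). The lowest NCBP2 library exceeded the highest vector library 5.89-fold. In edgeR's fits the log2 fold change was 3.63 (SE 0.505) for the arm, 3.19 (SE 0.483) for clone A1 and 3.96 (SE 0.494) for clone A4, and the clones share the same vector libraries. These are the values on which HLF was selected. In a bulk sample, more cells with HLF RNA and more HLF RNA per cell cannot be told apart.

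The difference in HLF between the clones was not used to choose it. HLF stood 0.76 log2 units (SE 0.429) higher in clone A4, with an unadjusted p of 0.09998 and an adjusted p of 0.791 by edgeR's quasi-likelihood test over 21682 genes. The 3 libraries of each clone did not overlap, as was the case for 13.6% of all genes tested. Without clone A4 replicate B the difference was 0.38. Within clone A4 the order of NCBP2 was the same, at 796.3, 1035 and 456.2 CPM, and replicate B was the highest of all 9 libraries for both genes. Within clone A1 the orders differed, with NCBP2 at 298.9, 348.4 and 304.7 CPM and HLF at 3.52, 3.82 and 2.99 CPM. Replicate B was highest there for both genes, while replicates A and C stood in opposite order. For NCBP2 itself the difference between the clones was 1.26 (SE 0.239, edgeR adjusted p 0.0764).

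**Figure D1:**
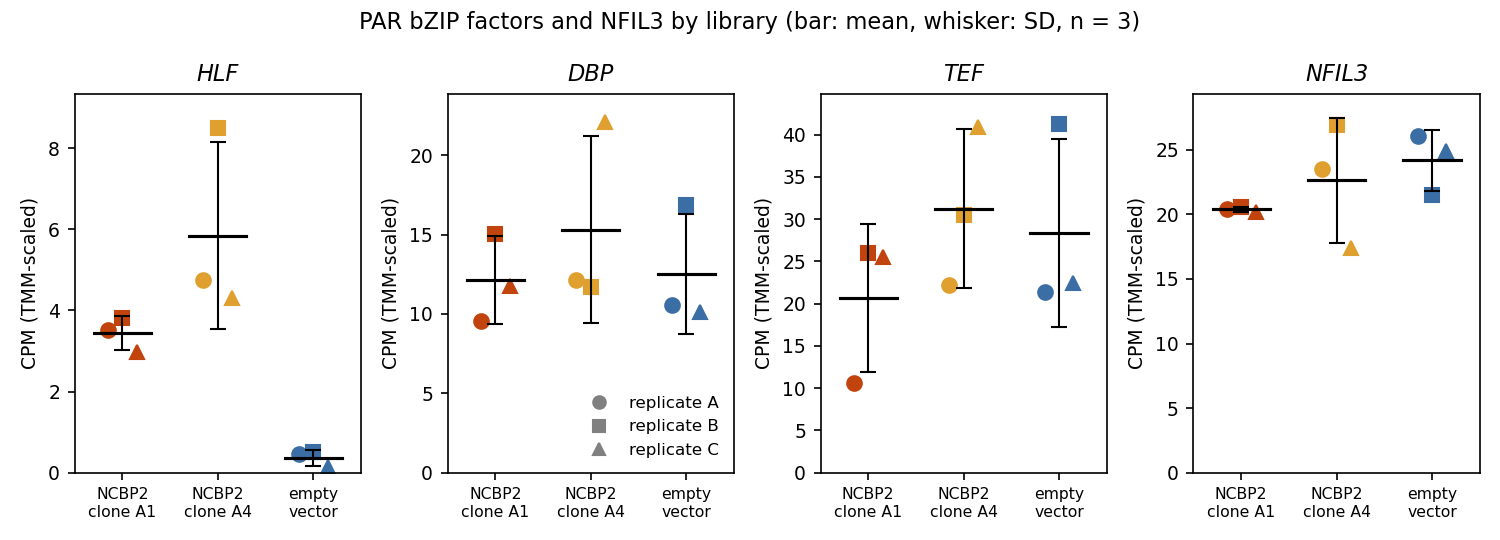
Level of HLF, DBP, TEF and NFIL3 in CPM (vertical axis from 0) in each library of clone A1, clone A4 and the vector arm; symbols are replicates, bars are means and whiskers SD (n = 3). HLF lay at 2.99 to 8.49 CPM in the NCBP2 libraries and at 0.146 to 0.507 CPM in the vector libraries, while the groups of DBP and TEF overlapped.

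The other PAR bZIP activators did not pass the test in any comparison. DBP, the founding member of the family and a clock output factor, measured 9.57, 15.1 and 11.8 CPM across clone A1. Clone A4 gave 12.1, 11.7 and 22.1 CPM and the vector 10.6, 16.9 and 10.1 CPM, so the groups overlapped. The log2 fold change of the arm was 0.13 (SE 0.279, edgeR adjusted p 0.999). The DBP exons share 661 bases with SPHK2 on the other strand, and reads of SPHK2 are kept out only as far as the counts separate strands. Between 20 and 56 counts per library lay on the strand opposite to DBP.

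TEF, the third activator of the family, measured 10.6, 26.0 and 25.6 CPM across clone A1 and 22.2, 30.5 and 40.95 CPM across clone A4. Vector libraries had 21.4, 41.2 and 22.5 CPM. The lowest value lay in clone A1 replicate A and the highest in vector replicate B, and the groups overlapped. The log2 fold change was -0.13 (SE 0.334) for the arm, -0.45 (SE 0.365, adjusted p 0.818) for clone A1 and 0.14 (SE 0.364, adjusted p 0.9997) for clone A4, by edgeR.

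NFIL3, the repressor that competes for the same elements, had the smallest spread within groups of the 9 genes tested. Clone A1 gave 20.4, 20.6 and 20.2 CPM, clone A4 gave 23.5, 26.9 and 17.4 CPM, and the vector gave 26.1, 21.5 and 24.9 CPM. Clone A1 lay under all vector libraries, a lack of overlap seen in 14.2% of all genes tested for that clone, and clone A4 overlapped them. The log2 fold change was -0.17 (SE 0.178) for the arm and -0.24 (SE 0.208, edgeR adjusted p 0.831) for clone A1.

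Levels of different genes were set side by side per kilobase of annotated exon, with all exons of a gene merged. On that scale TEF supplied most of the 3 activators' RNA. The merged exons of DBP span 6485 bases, against 2170 for its longest coding transcript, while those of TEF span 4702 against 4386. A shorter length would raise DBP, so the shares and the ratio to NFIL3 below hold for merged exons only. HLF made up 8.72% ± 3.45 (SD, n = 6) of the summed level of HLF, DBP and TEF in the NCBP2 arm, from 4.98% to 13.1%. In the vector arm its share was 0.690% ± 0.370 (SD, n = 3), from 0.339% to 1.08%. The share of TEF was 65.1% in the NCBP2 arm and 74.8% in the vector arm, and that of DBP was 26.2% and 24.5%. HLF thus stayed the least abundant of the 3 activators in each of the 9 libraries. NFIL3 stood at 1.40 times ± 0.549 (SD, n = 6) the summed activators in the NCBP2 arm and at 1.62 times ± 0.612 (SD, n = 3) in the vector arm, with overlapping libraries.

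The NR1D receptors, repressors that bind ROR elements, did not pass the test between the arms. NR1D1 (REV-ERB alpha) measured 19.1, 46.1 and 40.2 CPM across clone A1, 27.9, 43.6 and 46.3 CPM across clone A4 and 38.1, 62.6 and 24.1 CPM with the vector. Its log2 fold change for the arm was -0.16 (SE 0.311, edgeR adjusted p 0.999), and the vector libraries alone spanned most of the range. NR1D1 shares 473 exon bases with THRA on the other strand. NR1D2 (REV-ERB beta) measured 296.2, 280.2 and 290.7 CPM across clone A1, 243.8, 271.1 and 279.5 CPM across clone A4, and 326.0, 189.8 and 349.5 CPM with the vector. All clone A4 libraries lay under all clone A1 libraries (13.6% of all genes tested did not overlap between the clones), and the difference was -0.13 (SE 0.203, edgeR adjusted p 0.903). Vector replicate B, the library with the highest NR1D1, had the lowest NR1D2.

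Of the period genes, the repressors at the core of the clock, PER1 varied most. Clone A1 gave 1.197, 8.36 and 11.2 CPM, and the first of these values rests on 34 counts. Clone A4 gave 5.73, 7.69 and 13.6 CPM and the vector 7.28, 19.4 and 6.17 CPM. The groups overlapped, and the log2 fold change for the arm was -0.45 (SE 0.539, edgeR adjusted p 0.999). Its spread within groups was 1.18 on the log2 scale (SD pooled over the 3 groups), larger than that of 85.4% of all genes tested, whereas the SD of NFIL3 was 0.204, larger than that of 13.8%.

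PER2 measured 33.9, 35.5 and 39.2 CPM across clone A1, 17.8, 33.9 and 30.9 CPM across clone A4 and 21.7, 40.7 and 33.0 CPM with the vector. Its log2 fold change for the arm was 0.00 (SE 0.249, edgeR adjusted p 0.999). PER3 was among the most abundant of the 10 genes, at 192.8, 195.8 and 211.8 CPM across clone A1, 142.4, 203.1 and 198.5 CPM across clone A4 and 150.7, 189.9 and 220.2 CPM with the vector. The log2 fold change was 0.03 (SE 0.161), the smallest SE of the 9 genes tested. PER2 and PER3 were both lowest in clone A4 replicate A, followed by vector replicate A. The PER3 exons share 868 bases with UTS2 on the other strand, where 11 to 70 counts per library lay.

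CIART, a repressor of CLOCK and BMAL1 also known as CHRONO, was barely detected. It had 0, 4 and 0 counts across clone A1, 5, 0 and 8 across clone A4, and 1, 4 and 0 with the vector. It did not pass the filter on low counts and was not tested. The 4 libraries without a count allow a level of up to 0.0682 CPM (clone A4 replicate B) to 0.106 CPM (clone A1 replicate A), taking 3 counts as the limit and for counting error only.

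Across the 9 genes that could be tested, 1, HLF, passed an adjusted p of 0.05 by edgeR in the NCBP2 arm, where 0.0184% of all genes tested did. HLF was also the only one in clone A1 against vector (0.0646% of all genes) and in clone A4 against vector (0.115% of all genes). These contrasts chose HLF, and nothing is read from its calls. The call in the arm was lost with counts summed per clone, where the log2 fold change was 3.61 and the adjusted p 0.684. It was also lost without any vector library, without replicate A or C of clone A4, or without replicate B or C of clone A1 (log2 fold change 3.25 to 3.92 over the alternatives). The call in clone A1 was lost whichever library was left out, and that in clone A4 without vector replicate A. For clone A4 against clone A1, 0 of 9 passed by edgeR or by DESeq2, against 0.161% of all genes by edgeR. In that comparison 0 of 9 had an unadjusted edgeR p under 0.05. Of the other 8 genes, 0 had an unadjusted p under 0.05 in the arm, where 5.71% of all genes did. HLF was the only one of the 9 whose arms did not overlap, against 3.74% of all genes. For clone A4 against vector it was again HLF alone, against 12.1%. The median log2 fold change of the 8 genes was -0.09 in the arm, beside 0.02 over all genes tested. An adjusted p above the threshold does not show that their levels were equal. NCBP2, the overexpressed gene, did not pass in the arm either (edgeR adjusted p 0.123).

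**Figure D2:**
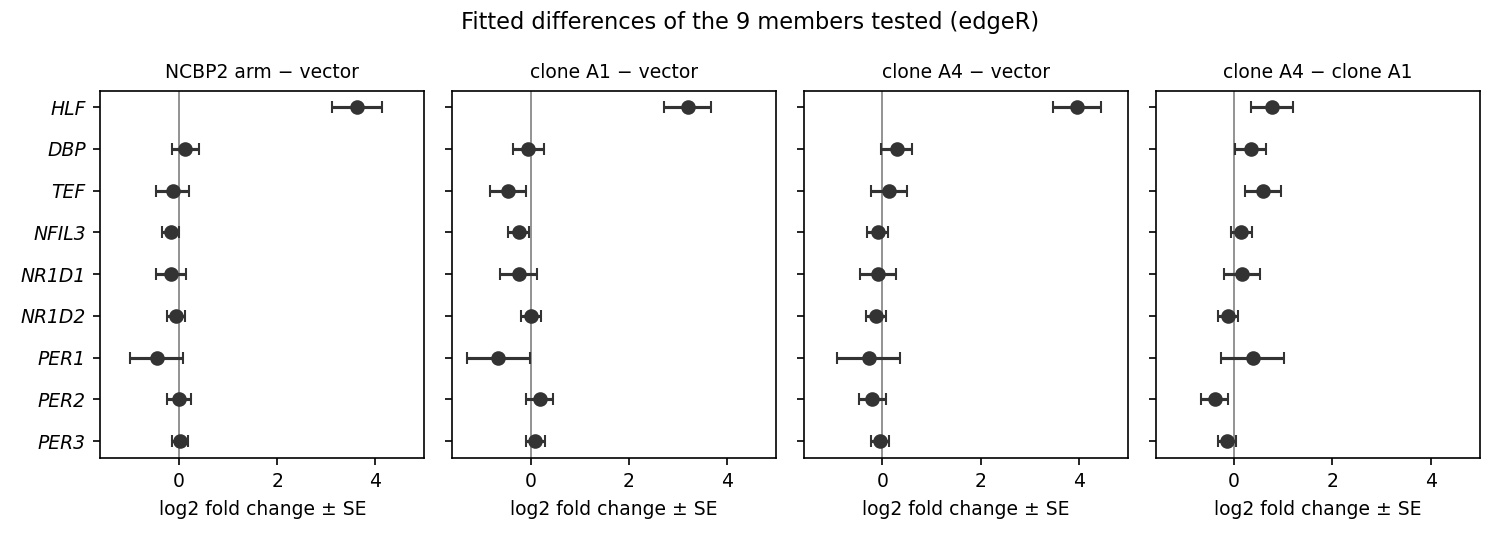
Log2 fold changes with their standard errors (horizontal axis) for the 9 genes tested, in the 4 comparisons named over the panels. HLF stands at 3.63, 3.19 and 3.96 against vector and at 0.76 between the clones; against vector the other genes lie between -0.65 (PER1, clone A1) and 0.29 (DBP, clone A4), and between the clones TEF, at 0.59, lies closest to HLF.

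The order of mean levels per kilobase of merged annotated exon was the same in both arms. For DBP that length was 6485 bases, against 2170 for its longest coding transcript, so its place in the order depends on this choice. Per kilobase of exon, the vector means ran from NR1D2 (49.8 CPM per kb) through PER3 (23.0), NR1D1 (15.8), NFIL3 (11.8), TEF (6.03), PER2 (4.48), DBP (1.93), PER1 (1.56) and HLF (0.0545) to CIART (0.0117 CPM per kb). In the NCBP2 arm HLF stood at 0.685 CPM per kb, still ninth of 10. In the vector arm neighbours in this order did not overlap between NR1D2 and PER3, NFIL3 and TEF, PER2 and DBP, and PER1 and HLF. In the NCBP2 arm NR1D2 stood apart from PER3 and HLF from CIART, and every other pair of neighbours overlapped. HLF therefore overlapped with CIART in the vector libraries and with PER1 in the NCBP2 libraries, where its highest library (1.25 CPM per kb) lay above the PER1 mean (1.14 CPM per kb).

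**Figure D3:**
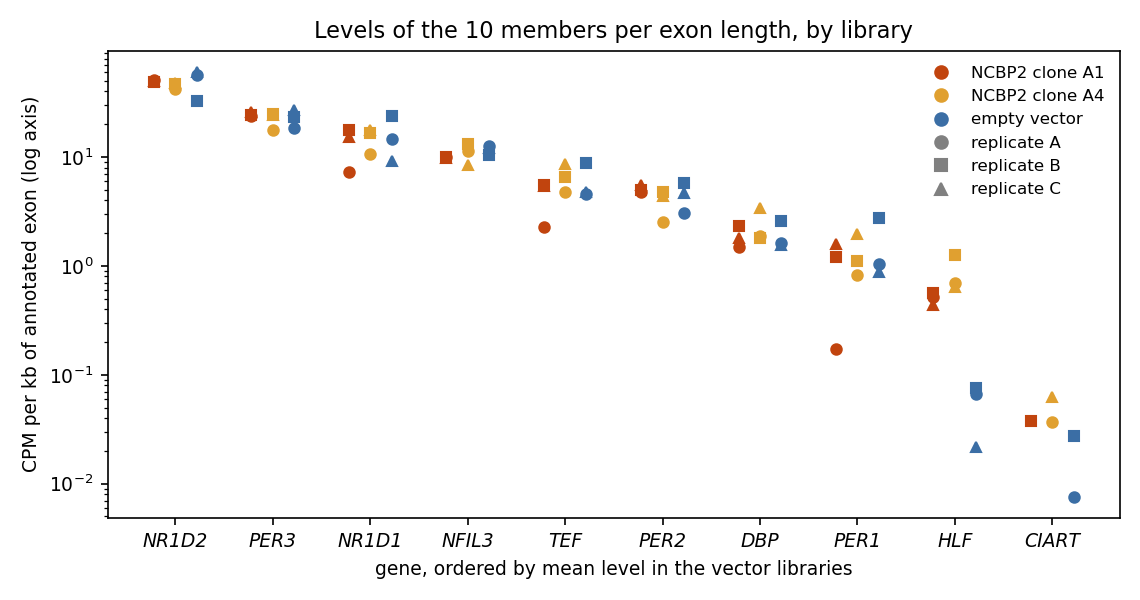
Level of each of the 10 genes per kilobase of annotated exon (log axis, CPM per kb) in each library, ordered by the vector mean; colours are groups and symbols replicates, and libraries with 0 counts cannot be drawn on this axis. The HLF points of the vector arm lie at 0.0216 to 0.0749 CPM per kb and those of the NCBP2 arm at 0.441 to 1.25.

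Within groups, DBP, TEF, NR1D1 and PER1 moved together from library to library. These 4 were set apart after their values were seen. Over the 9 libraries, with each group's mean removed, Pearson's r of their log2 levels lay between 0.731 and 0.968 for their 6 pairs, with a median of 0.856. Without clone A1 replicate A the median was 0.852. The largest was that of TEF and PER1 (r 0.968, Spearman's rho 0.85). All 4 were highest in vector replicate B within the vector arm, lowest in clone A1 replicate A within clone A1, and highest in clone A4 replicate C within clone A4. These are descriptions of 9 libraries that share their preparation, and removing 3 group means leaves fewer independent points.

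The other 30 pairs of the 9 genes had a median r of 0.120, from -0.826 for DBP and NFIL3 to 0.881 for PER2 and PER3. The r of HLF was 0.09 with DBP, 0.18 with TEF, 0.15 with PER1 and 0.54 with NR1D1, and without clone A1 replicate A it was 0.11, 0.29, 0.32 and 0.73. The last of these lies above the lowest pair of the 4 genes in those 8 libraries (0.710). Most of the 9 genes ran against the percentage of reads counted in no gene (unmapped, mapped to several places, or outside single genes), with r of -0.891 for PER1, -0.853 for TEF, -0.798 for NR1D1, -0.576 for PER2, -0.508 for DBP, -0.357 for PER3 and -0.231 for HLF. It was 0.268 for NFIL3 and 0.481 for NR1D2. Without clone A1 replicate A, r was -0.827 for PER1, -0.724 for TEF, -0.648 for NR1D1, -0.669 for PER2 and -0.375 for DBP. It was then -0.379 for PER3, -0.337 for HLF, 0.354 for NFIL3 and 0.586 for NR1D2. PER1 and DBP are rich in G and C, at 62.7% and 65.2% of their longest coding transcript, against 43.2% for HLF and 38.3% for NR1D2. Between these lay NR1D1 (58.9%), TEF (56.2%), PER2 (53.4%), PER3 (46.5%) and NFIL3 (46.2%). The part of read loss and base composition in this pattern was not tested.

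**Figure D4:**
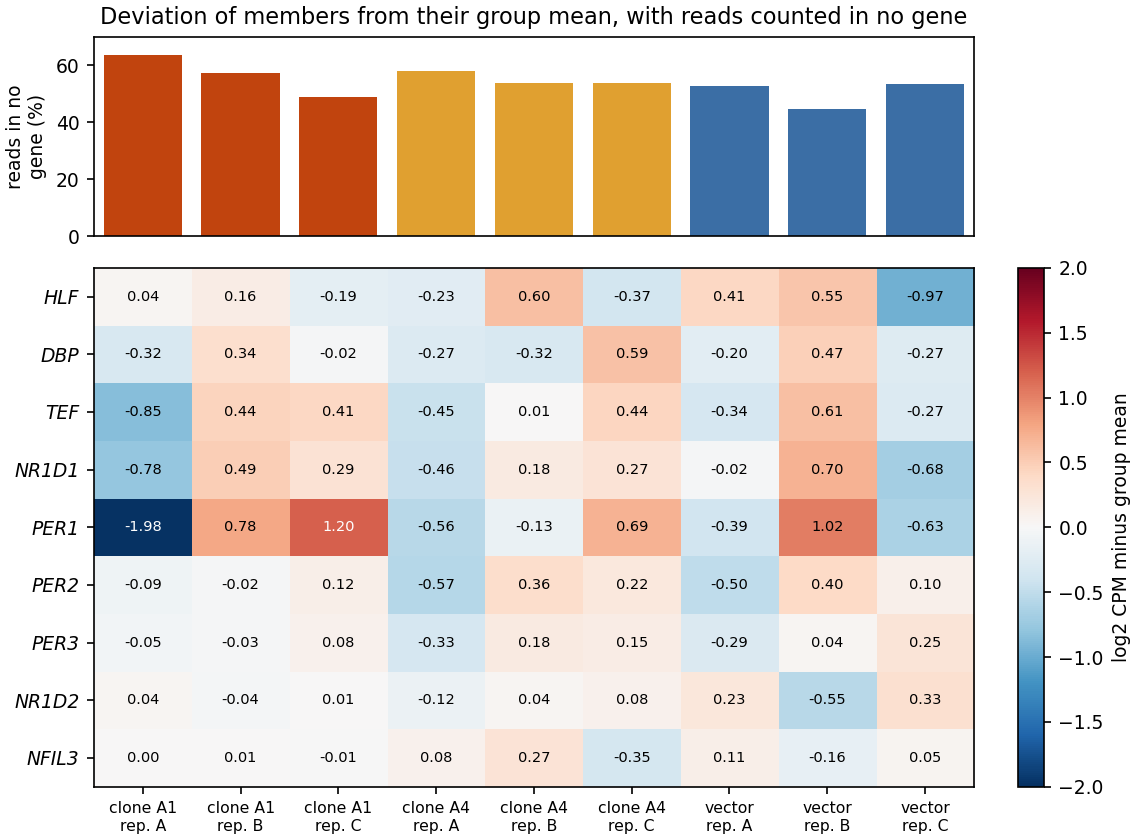
Reads counted in no gene in percent (bars) above the deviation of log2 CPM from the group mean (colour and number) for 9 genes in each library. TEF, NR1D1 and PER1 are lowest in clone A1 replicate A, which had 63.6% of reads in no gene, and DBP, TEF, NR1D1 and PER1 are raised in vector replicate B, which had 44.5%.

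The rest of the clock was counted through 7 lists of 37 genes, of which 35 were tested and 0 passed an adjusted p of 0.05 in the arm by edgeR or by DESeq2. By edgeR 0 passed in the other 3 comparisons too, with 5, 2 and 3 of 35 at an unadjusted p under 0.05 in clone A1, in clone A4 and between the clones, where 7.51%, 5.25% and 6.63% of all genes were. At an unadjusted p under 0.05, 4 of 35 did in the arm, against 5.71% of all genes, and the median log2 fold change of the 35 was -0.04. Of the activating limb, CLOCK averaged 314.8 CPM ± 71.8 (SD, n = 6) with NCBP2 and 284.9 CPM ± 124.5 (SD, n = 3) with the vector. BMAL1 averaged 25.6 CPM ± 8.42 (SD, n = 6) and 24.3 CPM ± 4.53 (SD, n = 3). The log2 fold changes were 0.14 (SE 0.271) for CLOCK, 0.08 (SE 0.266) for BMAL1 and -0.04 (SE 0.162) for BMAL2. NPAS2, a relative of CLOCK, stood at -0.60 (SE 0.248, edgeR adjusted p 0.800), and its arms overlapped.

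Among the repressors, CRY1 and CRY2, the partners of the PER proteins, had log2 fold changes of 0.14 (SE 0.149) and 0.15 (SE 0.277). BHLHE40 (DEC1) stood at -0.34 (SE 0.195). BHLHE41 (DEC2), which competes with CLOCK for E-boxes, averaged 80.4 CPM ± 13.2 (SD, n = 6) against 110.5 CPM ± 18.7 (SD, n = 3) and stood at -0.46 on the log2 scale (SE 0.167, adjusted p 0.684 by edgeR). RORA and RORB, receptors that activate where the NR1D receptors repress, lay on either side of 0. RORA averaged 62.95 CPM ± 26.4 (SD, n = 6) against 35.4 CPM ± 14.2 (SD, n = 3), and its log2 difference was 0.83 (SE 0.346, adjusted p 0.810 by edgeR). RORB stood at -0.51 (SE 0.236, edgeR adjusted p 0.871). No gene of the 35 separated the arms without overlap, as 3.74% of all genes tested did. All 4 C/EBP factors tested, bZIP proteins that bind elements close to the D-box, and all 4 genes linked to HLF in blood cells had an unadjusted p above 0.05 in the arm.

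None of the tested neighbours of HLF on chromosome 17 had a higher fitted level with NCBP2. Of 8 protein-coding genes within 1 Mb, 6 were tested. On the side before its start, the log2 fold change was -0.14 (SE 0.320) for STXBP4, a syntaxin-binding protein gene 91.3 kb away, and -0.02 (SE 0.181) for COX11, which encodes a factor for building cytochrome oxidase. TOM1L1 on that side was at most 0.0704 CPM and was not tested. On the other side MMD, 67.4 kb away, averaged 85.9 CPM ± 10.5 (SD, n = 6) against 108.6 CPM ± 12.1 (SD, n = 3), and its log2 difference was -0.34 (SE 0.148, adjusted p 0.832 by edgeR). SMIM36 had no counts. TMEM100 averaged 6.11 CPM ± 1.96 (SD, n = 6) against 11.1 CPM ± 1.22 (SD, n = 3), and its log2 difference was -0.86 (SE 0.272, adjusted p 0.568 by edgeR).

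Beyond these, PCTP and ANKFN1, named after their values were seen, had log2 fold changes of -0.62 (SE 0.220) and -1.84 (SE 0.703), with edgeR adjusted p-values of 0.662 and 0.720. In TMEM100, PCTP and ANKFN1 every NCBP2 library lay below every vector library, a lack of overlap that 3.74% of all genes tested showed in either direction. None of the 6 neighbours passed the adjusted threshold.

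**Figure D5:**
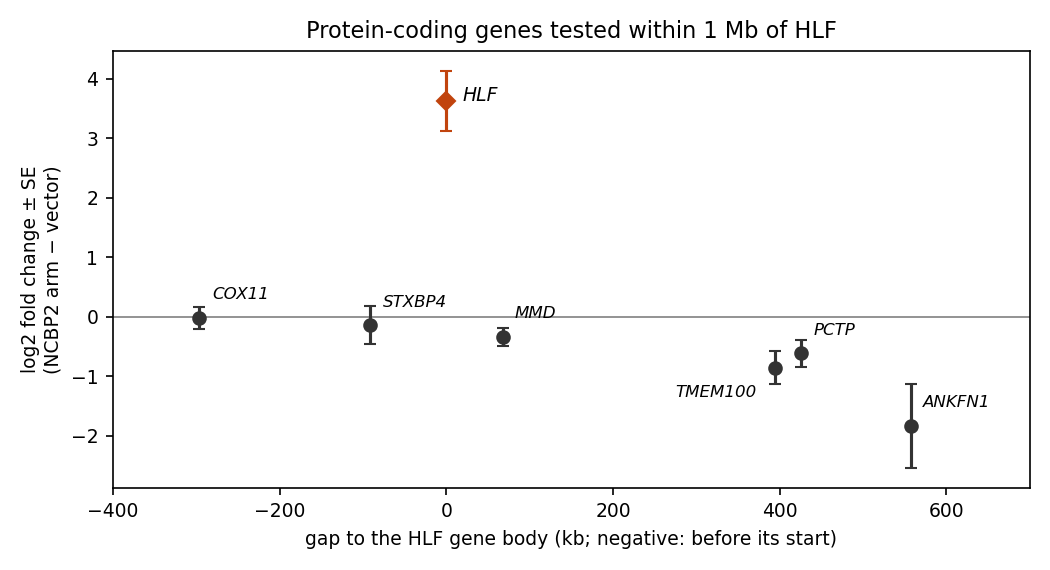
Log2 fold change of the NCBP2 arm against vector with its standard error (vertical axis) for HLF (diamond) and the 6 tested protein-coding genes within 1 Mb, by their gap to the HLF gene in kb. HLF stands at 3.63 and its neighbours between -1.84 and -0.02.

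The 5 genes whose log2 levels were most like those of HLF, by Pearson's r over the 9 libraries among 13597 genes, were PCDHB8 (0.961), NANOS1 (0.958), CCT7 (0.951), WNT11 (0.942) and BRD3OS (0.939). NCBP2 stood seventh, at 0.932. The 13597 were tested genes with a symbol and an average log2 CPM of at least 0, without pseudogenes and the 10 members. These values follow mainly from the gap between the arms that chose HLF, and they are descriptive. Within the 6 NCBP2 libraries, r with HLF was 0.971 for PCDHB8, 0.913 for NCBP2, 0.890 for WNT11, 0.809 for BRD3OS, 0.661 for NANOS1 and -0.07 for CCT7. The 5 genes were picked on 9 libraries that include these 6, and the share of all genes with such r was not counted. Clone means were not removed from these values, and clone A4 replicate B, the highest library for HLF, was not left out. The part of the gap between clones and of that library was not tested. Without clone A1 replicate A, r over the other 8 libraries lay between 0.940 (WNT11) and 0.977 (NANOS1). PCDHB8, a protocadherin gene of chromosome 5, measured 16.998, 14.6 and 12.3 CPM across clone A1, 20.2, 32.1 and 17.4 CPM across clone A4, and 6.41, 5.13 and 5.03 CPM with the vector. WNT11, which encodes a secreted signalling protein, was at 2.98 to 8.37 CPM in the NCBP2 arm and 0.347 to 1.52 CPM in the vector arm. Both, like HLF and NCBP2, were highest in clone A4 replicate B.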

How the data were processed

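Gene expression was measured in 9 RNA-seq libraries of U2-OS clones. The authors deposited raw read counts per gene for each library, and the submitters' processing notes name STAR 2.7.1a and GRCh38; the annotation release is not given in the sources used here. Column 3 of each table, which held most stranded counts, was used, and the 4 lines that name no gene (44.5% to 63.6% of reads) were left out. Of 60609 identifiers, 60295 matched GENCODE release 44 (49338 with the same version), which gave symbols, exon lengths and coordinates.

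Tests were edgeR 4.0.16 quasi-likelihood fits (R 4.3.3, robust, filterByExpr, TMM, Benjamini-Hochberg over 21682 genes): 1 fit with 2 groups and 1 with 3 groups sharing the spread. SEs were derived from the log2 fold change and its F statistic. CPM used TMM-scaled sizes and log2 CPM a prior count of 2. The common biological coefficient of variation was 0.427. The fits were also run on simulated counts. Those libraries were independent and held no differences between clones of an arm, so the run cannot show how p-values behave under this design. Alternatives were DESeq2 1.42.0, its size factors, limma 3.58.1 (voom with library weights), no filter, unstranded counts, sums per clone, a replicate block and each library left out. Leaving clone A1 replicate A out of the within-group correlations was chosen after seeing the data.

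The members and gene lists were chosen with earlier results of these data known. Named are all 10 members, the core clock genes, RORA and RORB, other listed genes past an adjusted p of 0.05 in a comparison or an unadjusted one in the arm, NCBP2, the 3 nearest coding genes on each side of HLF, and the 5 genes with the highest r with HLF. PCTP and ANKFN1 were named after their values were seen. Some listed genes are not reported here.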

Additional observations from a re-analysis of the deposited data

Results flagged for a closer look

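HLF stood at 8.485 CPM in clone A4 replicate B, far above the other 5 libraries of the NCBP2 arm, which lay at 2.99 to 4.74 CPM. PER3 stood at 142.4 CPM in clone A4 replicate A, far below the other NCBP2 libraries at 192.8 to 211.8 CPM. Such gaps were looked for in 9 genes over 6 libraries, and with the 95% critical value of Dixon's test chance alone gives one in about 1 of 20 groups. That rate is for a single group, whereas these 6 libraries pool 2 clones whose HLF levels do not overlap. On the strand opposite to HLF, which no comparison used, clone A4 replicate B had 13 counts and clone A4 replicate C had 1, while the other 7 libraries, all vector libraries included, had 0.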

How the results depend on the processing

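The log2 fold changes of HLF were 3.25 to 3.92 in the arm over 16 alternatives, 2.81 to 3.49 in clone A1 over 14 and 3.57 to 4.25 in clone A4 over 14. HLF was selected for this difference and its arms did not overlap, so the sign was fixed in advance and supports nothing. The call of HLF was less stable than its sign. With counts summed per clone, 0 members were called in the arm instead of 1. Leaving out 1 library gave 0 to 1 calls in the arm, with 0 without any vector library, clone A4's A or C, or clone A1's B or C. For clone A1 it gave 0 calls whichever library was left out. For clone A4 it gave 0 to 1 calls, with 0 without vector replicate A. The cause was not tested. Clone A4 against clone A1 gave 0 calls throughout, with log2 fold changes of HLF of 0.38 to 0.92. The 37 pathway genes were counted under alternatives in the arm only. They gave 0 calls with each library left out, with sums per clone and with DESeq2, and were not counted under the other alternatives. The other 8 members tested had an adjusted p above 0.05 in all alternatives (lowest 0.498 in the arm, 0.533 in clone A1, 0.765 in clone A4 and 0.497 between the clones). The sign of their values changed in 54 cases and stayed in 410. In the arm, voom gave 0.165 for TEF, 0.152 for NR1D1 and 0.0885 for PER1. PER2 stood at -0.0158 without a filter, -0.0239 with unstranded counts and -0.00255 with sums per clone, and PER3 at -0.00939 with unstranded counts. In clone A1, NR1D2 stood at -0.0156 without a filter and -0.0174 with unstranded counts.

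With each library left out in turn, the log2 fold changes that changed sign ranged as follows. In the arm they were -0.0561 to 0.404 for DBP, -0.312 to 0.243 for TEF, -0.457 to 0.256 for NR1D1, -0.287 to 0.0875 for NR1D2, -0.762 to 0.246 for PER1, -0.223 to 0.223 for PER2 and -0.116 to 0.144 for PER3. In clone A1 they were -0.243 to 0.233 for DBP, -0.534 to 0.180 for NR1D1, -0.222 to 0.153 for NR1D2, -1.19 to 0.0549 for PER1, -0.0351 to 0.411 for PER2 and -0.0429 to 0.217 for PER3. In clone A4 they were -0.0902 to 0.556 for DBP, -0.125 to 0.504 for TEF, -0.257 to 0.0470 for NFIL3, -0.385 to 0.329 for NR1D1, -0.356 to 0.0192 for NR1D2, -0.728 to 0.414 for PER1, -0.438 to 0.0106 for PER2 and -0.193 to 0.0876 for PER3. Between the clones they were -0.0429 to 0.512 for DBP, -0.00746 to 0.289 for NFIL3, -0.133 to 0.396 for NR1D1 and -0.109 to 0.908 for PER1.

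The replicate letters were not taken to pair the libraries, since pairing was to need a correlation of same-letter deviations above 0.1 in all 9 pairs and 6 reached it: all those of letter A (0.126 to 0.151), but not all of letters B and C. With the letter as a replicate block, 1 member was called in the arm, 1 in each clone against vector and 0 between the clones, and HLF stood at 3.70, 3.30 and 3.999. The depth limits HLF in the vector arm, with 6 to 26 counts, and CIART, with 0 to 8. With a common coefficient of variation of 0.427 and 3 vector libraries, differences of the size of the SEs given could not be detected.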
